A study of Homo sapiens with 16 samples.

Results

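The genes described here are 8 of the 43388 genes in the deposited table, chosen by name because they make, import or use creatine. They are the creatine kinases CKM, CKB, CKMT1A, CKMT1B and CKMT2, the creatine transporter SLC6A8, and the creatine synthesis enzymes GATM and GAMT. Creatine kinases move a phosphate between ATP and creatine, so that phosphocreatine can carry energy from mitochondria to the myofibrils and ion pumps and can buffer ATP during contraction. CKMT2 is the sarcomeric kinase of the mitochondrial intermembrane space, CKM the muscle kinase of the cytosol and the M-band, and CKB the brain-type kinase, which is also the form of the early heart. Heart muscle imports most of its creatine through SLC6A8, whereas GATM and GAMT, which make creatine from arginine, glycine and a methyl group, are best known from kidney and liver.

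RNA was measured in hPSC-CMs, cardiomyocytes differentiated from the wild-type human induced pluripotent stem cell line WTC11 by the GiWi protocol, which modulates Wnt signalling with small molecules. Every group held B27 supplement and came from a single differentiation, a well per library, with 4 libraries in each of 4 groups. Cells in standard RPMI/B27 were collected at Day 16, and the others were kept until Day 30 in standard RPMI/B27, in RPMI/B27 with glucose lowered to 5 mM to match HPLM (RPMI_glcM/B27), or in HPLM/B27. HPLM is a medium composed after human plasma that, unlike RPMI, lists creatine among its components. The values are TPM, read counts divided by gene length and by the library's total, so that levels of different genes can be compared only as far as the lengths used are right. For CKMT2 the length used was far above that of its principal transcript, and its level is given both ways below. The spread between libraries is that between wells of a single differentiation, so the p-values say nothing of other differentiations or lines.

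Each library held between 7744768 and 16183655 recovered reads on genes, so that 1 read per kilobase of gene was worth 0.139 to 0.314 TPM. Of the Day 30 RPMI/B27 libraries, replicates 3 and 4 stood apart, with 14387 and 29276 TPM of RNR1, a mitochondrial ribosomal RNA, against 1545 and 619 in replicates 1 and 2. The TPM of ordinary genes were lower in the same libraries, with median-of-ratios factors of 0.779 and 0.720 against 1.15 and 1.18. Over all genes tested, the median log2 fold change from Day 16 to Day 30 was -0.28 in RPMI/B27, -0.29 in HPLM/B27 and -0.22 in RPMI_glcM/B27. Values divided by the median-of-ratios factor, called rescaled TPM below, brought these medians to between 0.01 and 0.02, and are given beside the TPM wherever they change a call or a direction. All 10 cardiomyocyte markers were tested and their summed level lay between 12410 and 16720 TPM in every library. Within that sum single markers moved in opposite directions. From Day 16 to Day 30 HPLM/B27 the mean of MYH6 went from 2130 to 658 TPM and that of TNNI3 from 158 to 1337 TPM. The sum is therefore no measure of the share of cardiomyocytes.

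Of the 8 members, 6 (CKM, CKB, CKMT2, SLC6A8, GATM and GAMT) passed the filter of a mean of at least 1 TPM and were tested with limma. CKMT1A and CKMT1B did not. From Day 16 to Day 30 in RPMI/B27, 1 member rose (CKMT2) and 3 fell (CKB, GATM and GAMT), where 2.08% of all genes tested rose and 17.8% fell. In RPMI_glcM/B27, CKM and CKMT2 rose from Day 16 and GATM fell, against 3.34% of all genes higher and 17.8% lower. In HPLM/B27, CKM and CKMT2 rose and GATM and GAMT fell, against 3% higher and 22.4% lower. At Day 30, RPMI_glcM/B27 was above RPMI/B27 in CKM and CKB, where 1.36% of all genes were higher and 0.837% lower. HPLM/B27 was above RPMI/B27 in CKM, CKB and SLC6A8, where 1.51% were higher and 0.893% lower. No member passed the threshold between HPLM/B27 and RPMI_glcM/B27, where 0.0682% of all genes did. The comparisons share groups, so their counts are not independent of each other.

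Rescaling changed these counts. On rescaled TPM, CKMT2 rose and CKB fell over time in RPMI/B27 (8.82% of all genes higher, 8.74% lower). CKM, CKMT2 and SLC6A8 rose and GATM fell from Day 16 in RPMI_glcM/B27 (14.1% higher, 13.6% lower) and in HPLM/B27 (13.4% higher, 11.8% lower). Against Day 30 RPMI/B27, CKM, CKB and SLC6A8 were higher and GATM lower in RPMI_glcM/B27 (6.49% higher, 5.66% lower), and CKM, CKB, CKMT2 and SLC6A8 were higher and GATM lower in HPLM/B27 (7.49% higher, 5.56% lower). Again no member passed the threshold between HPLM/B27 and RPMI_glcM/B27, where 1.6% of all genes did.

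**Figure D1:**
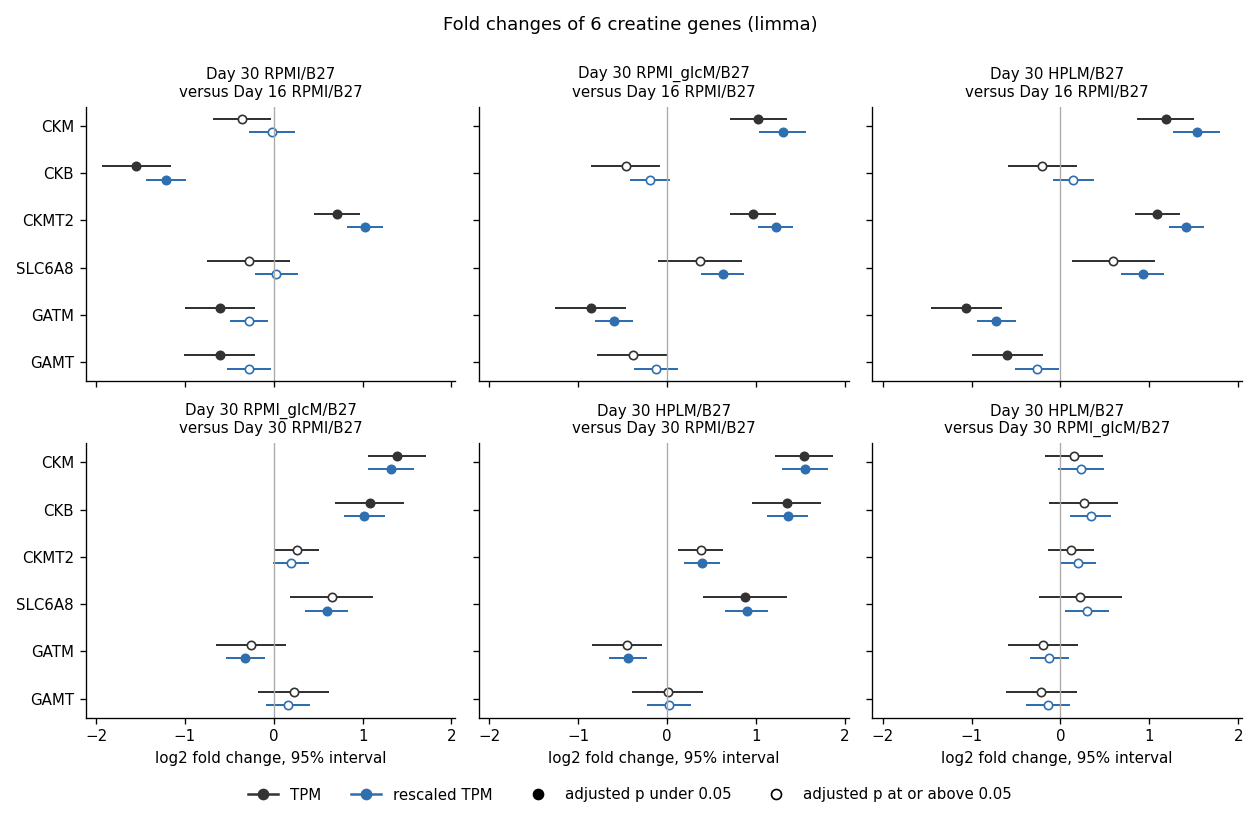
Log2 fold change of each tested member in 6 comparisons (x axis, limma on log2(value + 1), bars are 95% intervals), from TPM in black and from rescaled TPM in blue, with filled points where the adjusted p was under 0.05. CKM and CKMT2 lie to the right in both Day 30 media of lowered glucose against Day 16, CKB lies to the left in Day 30 RPMI/B27, and every point of HPLM/B27 against RPMI_glcM/B27 is open.

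CKM, on the minus strand of chromosome 19 from 45306413 to 45322875 (GRCh38, GENCODE), was the most abundant creatine gene in every group. At Day 16 its level was 144, 184, 138 and 131 TPM in replicates 1 to 4. In Day 30 RPMI/B27 it was 136, 115, 120.1 and 93.2 TPM. In Day 30 RPMI_glcM/B27 it was 315, 321, 315 and 263 TPM. In Day 30 HPLM/B27 it was 309, 431, 342 and 283 TPM. All 8 libraries of RPMI_glcM/B27 and HPLM/B27 were above all 8 libraries kept in RPMI/B27, whereas Day 16 and Day 30 RPMI/B27 overlapped. Relative to Day 30 RPMI/B27, CKM was 2.61-fold higher in the mean in RPMI_glcM/B27 (log2 fold change 1.39, SE 0.15, adjusted p = 8.40e-05) and 2.94-fold higher in HPLM/B27 (1.54, SE 0.15, adjusted p = 2.95e-05). It also rose from Day 16, by a log2 fold change of 1.03 (SE 0.15, adjusted p = 0.000162) in RPMI_glcM/B27 and 1.18 (SE 0.15, adjusted p = 4.71e-05) in HPLM/B27. From Day 16 to Day 30 in RPMI/B27 the TPM of CKM had a log2 fold change of -0.36 (95% interval -0.67 to -0.04, adjusted p = 0.0941). Without replicate 1 of Day 30 RPMI/B27 that value was -0.44 and passed the test (adjusted p = 0.0443), while on rescaled TPM it was -0.02 (interval -0.27 to 0.23, adjusted p = 0.939). Over the alternatives its adjusted p ran from 0.0239 to 0.940.

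CKB, on the minus strand of chromosome 14 from 103519667 to 103522833, moved differently from CKM over time. At Day 16 it stood at 117, 136, 121 and 97.5 TPM. In Day 30 RPMI/B27 it was 50.7, 47.4, 40 and 24.9 TPM. In Day 30 RPMI_glcM/B27 it was 102, 79.7, 80.6 and 77.8 TPM. In Day 30 HPLM/B27 it was 101, 111, 93.2 and 102 TPM. The Day 30 RPMI/B27 libraries were below all 12 others, and the other 3 groups overlapped with each other. CKB fell in RPMI/B27 to 0.346 of its Day 16 mean (log2 fold change -1.55, SE 0.18, adjusted p = 4.89e-05). At Day 30 it was 2.09-fold higher in RPMI_glcM/B27 than in RPMI/B27 (log2 fold change 1.08, SE 0.18, adjusted p = 0.00446) and 2.5-fold higher in HPLM/B27 (1.35, SE 0.18, adjusted p = 0.000664). Without the 2 Day 30 RPMI/B27 libraries of highest RNR1, these 3 log2 fold changes were -1.24, 0.77 and 1.04, and all passed the test (adjusted p = 7.39e-05, 0.00556 and 0.000880). Fitted with only the 2 groups, RPMI_glcM/B27 against RPMI/B27 had an adjusted p of 0.0800, the highest over its alternatives. Against Day 16, CKB had a log2 fold change of -0.47 in RPMI_glcM/B27 (interval -0.84 to -0.09, adjusted p = 0.0745), which passed the test with only the 2 groups in the fit (adjusted p = 0.0214) and with a replicate block (adjusted p = 0.0298), and -0.20 in HPLM/B27 (interval -0.58 to 0.17, adjusted p = 0.414). The latter turned to 0.15 on rescaled TPM (interval -0.07 to 0.36, adjusted p = 0.331).

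Markers of other cells that use the brain-type kinase were read beside CKB. The summed level of 7 smooth muscle markers, 6 of them tested and MYH11 listed at 0 throughout, was 376 to 837 TPM at Day 16, 241 to 1007 TPM in Day 30 RPMI/B27, 268 to 352 TPM in RPMI_glcM/B27 and 285 to 506 TPM in HPLM/B27. The 7 neural markers, 1 of them tested and NEUROD1 listed at 0 throughout, summed to 7.27 to 9.895 TPM at Day 16, 4.63 to 7.73 TPM in Day 30 RPMI/B27, 1.73 to 4.28 TPM in RPMI_glcM/B27 and 3.41 to 4.975 TPM in HPLM/B27. The smooth muscle sums of Day 30 RPMI/B27 spanned those of all other groups, and the lowest neural sums were in RPMI_glcM/B27. Their part in the CKB values was not tested. In bulk RNA, fewer cells of a type and less RNA per cell cannot be told apart.

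CKMT2, on the plus strand of chromosome 5 from 81233320 to 81266398, rose with time in all 3 media. Its level was 11.1, 13.6, 11.4 and 10.1 TPM at Day 16. It was 21.1, 21.0, 17.9 and 17.8 TPM in Day 30 RPMI/B27. It was 25.0, 25.0, 22.6 and 21.3 TPM in Day 30 RPMI_glcM/B27. It was 22.5, 26.9, 26.7 and 26.3 TPM in Day 30 HPLM/B27. Every Day 30 library was above every Day 16 library. The log2 fold change from Day 16 was 0.71 (SE 0.12, adjusted p = 0.000812) in RPMI/B27, 0.97 (SE 0.12, adjusted p = 3.01e-05) in RPMI_glcM/B27 and 1.09 (SE 0.12, adjusted p = 1.07e-05) in HPLM/B27. Among the Day 30 media the differences were small, and none passed the test on TPM. They were 0.26 (interval 0.01 to 0.50, adjusted p = 0.301) for RPMI_glcM/B27 over RPMI/B27 and 0.38 (interval 0.13 to 0.62, adjusted p = 0.106) for HPLM/B27 over RPMI/B27. On TPM neither group overlapped with RPMI/B27. On rescaled TPM RPMI_glcM/B27 (23.28 to 24.42) overlapped with RPMI/B27 (17.86 to 24.77), and HPLM/B27 did not. How many of all genes were without overlap was not counted. HPLM/B27 over RPMI/B27 passed on rescaled TPM (0.39, adjusted p = 0.00959), with a range over the alternatives from 0.00351 to 0.361. The antisense gene CKMT2-AS1 lies across 28834 bases of the CKMT2 locus. The kit keeps the strand, but whether the counting used it is not given in the sources used here. CKMT2-AS1 had a mean of 8.79 ± 1.95 TPM (SD, n = 4) at Day 16 and of 9.53 ± 2.56, 10.02 ± 0.745 and 9.49 ± 0.487 TPM (SD, n = 4) at Day 30 (RPMI/B27, then RPMI_glcM/B27, then HPLM/B27).

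CKMT1A and CKMT1B, a duplicated pair on the plus strand of chromosome 15 (from 43692886 to 43699222 and from 43593054 to 43604901), encode the ubiquitous mitochondrial kinase, and few reads were counted on them. Over the 16 libraries CKMT1A had 13 reads and CKMT1B 19, and no library held more than 5 reads of either. Levels reached at most 0.265 TPM for CKMT1A and 0.373 TPM for CKMT1B, and 3 reads, the limit that a count of 0 allows, correspond to 0.163 to 0.368 TPM of CKMT1A, for counting error only. Of the stretches of 100 bases in the principal transcript of either gene, 84.4% also occur in the other. How reads that match both genes were counted is not given in the sources used here, so these values may leave out shared reads and set no upper limit on the level of the pair.

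The kinases are alike enough that their coding sequences can be set side by side, yet no stretch of 100 bases of CKM, CKB or CKMT2 occurs in another gene's transcript. CKM and CKB are identical at 78.8% of aligned coding bases, CKM and CKMT2 at 66.7%, CKB and CKMT2 at 67.5%, and CKMT1A and CKMT1B at 99.8%. The 60 coding bases where CKM is most like the other 4 are shown because they hold the closest match that reads would have to tell apart. They are bases 169 to 228 of the CKM and CKB coding sequences, 268 to 327 of CKMT1A and CKMT1B, and 271 to 330 of CKMT2, from GENCODE transcripts. Capitals mark bases that differ from CKM, of which there are 6 in CKB and 9 in each of the other 3, and CKMT1A and CKMT1B do not differ here.
CKM: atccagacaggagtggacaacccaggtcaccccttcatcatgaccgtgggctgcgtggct
CKB: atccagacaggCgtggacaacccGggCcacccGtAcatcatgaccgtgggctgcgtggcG
CKMT1A: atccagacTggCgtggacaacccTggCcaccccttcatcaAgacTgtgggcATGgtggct
CKMT1B: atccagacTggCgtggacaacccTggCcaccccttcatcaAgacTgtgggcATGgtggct
CKMT2: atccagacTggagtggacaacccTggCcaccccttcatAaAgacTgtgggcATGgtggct

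**Figure D2:**
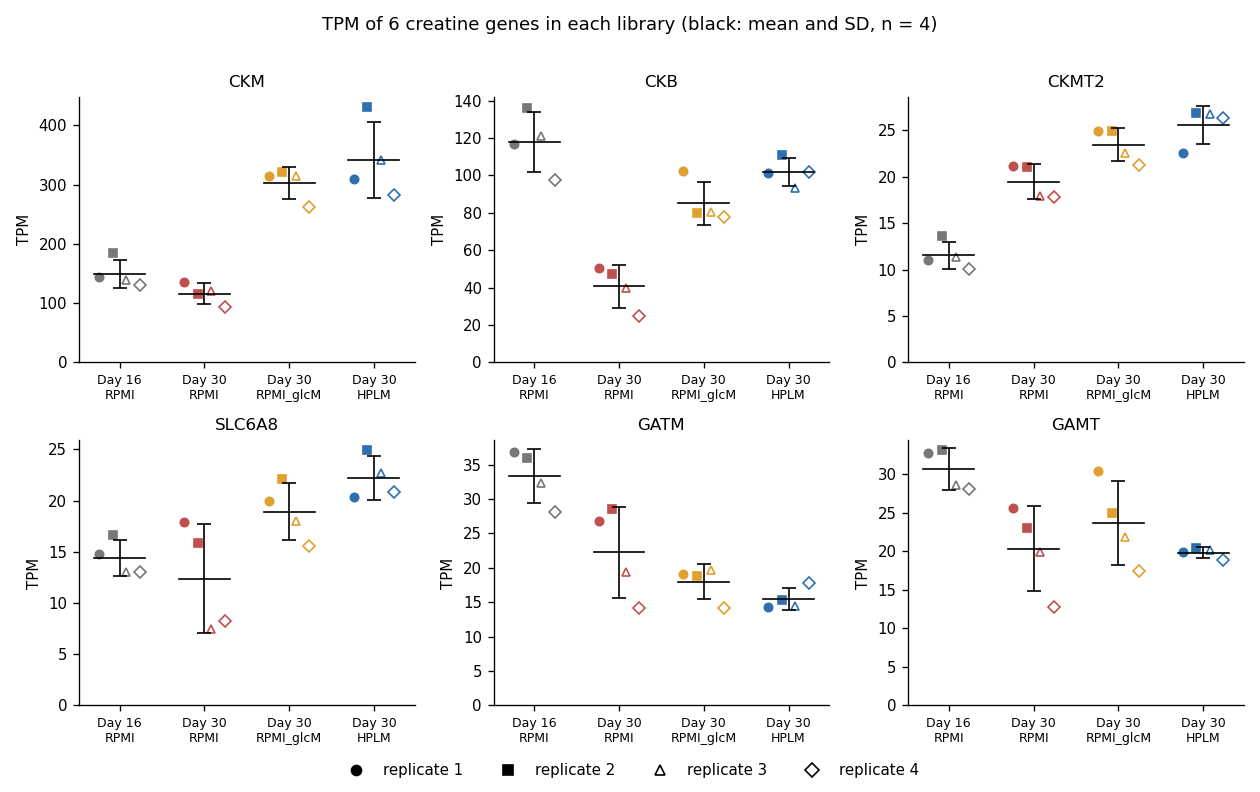
TPM (y axis, from 0) of the 6 members above 1 TPM in each of the 16 libraries by group (x axis), with a symbol for each replicate number and the mean and SD in black (n = 4). CKM reaches 431 TPM in HPLM/B27, CKB drops to 24.9 TPM in Day 30 RPMI/B27, and replicates 3 and 4 of Day 30 RPMI/B27 are the lowest for SLC6A8, at 7.5 and 8.24 TPM.

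The makeup of the creatine kinase pool was compared by ratios within a library, which do not depend on how a library was scaled. Each difference was put to an exact permutation test (two-sided, 4 libraries a side), which can give no p below 0.0286, and p-values were adjusted over 24 tests (4 quantities in 6 comparisons). The log2 ratio of CKM over CKB was 0.30, 0.43, 0.19 and 0.42 at Day 16. It was 1.43, 1.28, 1.59 and 1.90 in Day 30 RPMI/B27. The 4 values of RPMI_glcM/B27 were 1.62, 2.01, 1.97 and 1.75, and those of HPLM/B27 were 1.61, 1.95, 1.87 and 1.47. All 12 Day 30 libraries were above all Day 16 libraries, and the 3 Day 30 groups overlapped with each other. The ratio was above its Day 16 mean by 1.21 in RPMI/B27, 1.39 in HPLM/B27 and 1.503 in RPMI_glcM/B27 (exact permutation test, adjusted p = 0.0457 for each). Between Day 30 media it differed by 0.29 (RPMI_glcM/B27 over RPMI/B27, adjusted p = 0.161, exact permutation test), 0.18 (HPLM/B27 over RPMI/B27, adjusted p = 0.397) and -0.11 (HPLM/B27 over RPMI_glcM/B27, adjusted p = 0.514).

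The mitochondrial kinase followed another order relative to the muscle kinase. The log2 ratio of CKMT2 over CKM was -3.70, -3.76, -3.60 and -3.70 at Day 16 and -2.69, -2.45, -2.74 and -2.39 in Day 30 RPMI/B27. It was -3.66, -3.68, -3.80 and -3.62 in RPMI_glcM/B27 and -3.78, -4.0, -3.68 and -3.43 in HPLM/B27. Day 30 RPMI/B27 was above the other 3 groups without overlap, by 1.12 against Day 16, 1.12 against RPMI_glcM/B27 and 1.15 against HPLM/B27 (exact permutation test, adjusted p = 0.0457 for each). Against Day 16 it differed by -0.0026 in RPMI_glcM/B27 (exact permutation test, adjusted p = 0.971) and by -0.03 in HPLM/B27 (adjusted p = 0.873), with overlap.

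**Figure D3:**
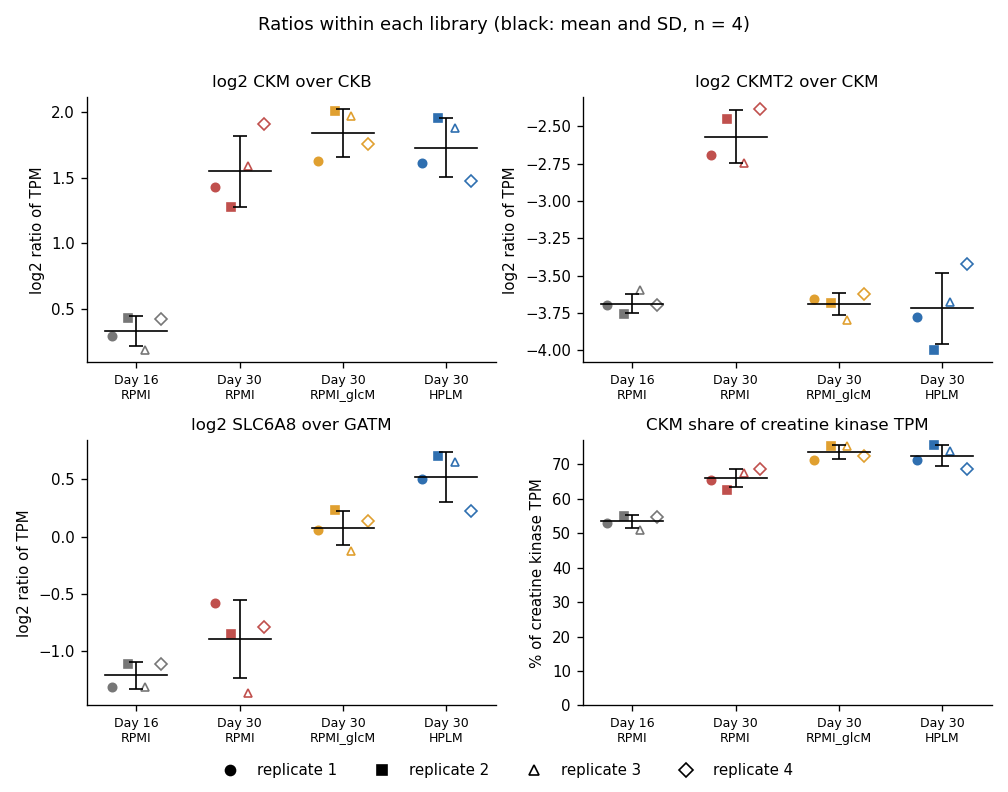
Log2 ratios of TPM within a library and the share of CKM in the summed TPM of the 5 creatine kinases (y axes) by group (x axis), with a symbol for each replicate number and the mean and SD in black (n = 4). CKM over CKB separates Day 16 from the Day 30 groups, and CKMT2 over CKM separates Day 30 RPMI/B27 from the other 3 groups. With the gene lengths used, SLC6A8 over GATM is above 0 in all HPLM/B27 libraries.

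Summed over the 5 kinases, the level was 279 ± 39.8 TPM (SD, n = 4) at Day 16, 176.5 ± 30.0 TPM in Day 30 RPMI/B27, 412 ± 34.9 TPM in RPMI_glcM/B27 and 469 ± 69.8 TPM in HPLM/B27. Unlike the ratios, the sum depends on how a library was scaled, and it was not computed on rescaled TPM. On that scale CKM, CKB and CKMT2 had means of 125.2, 99.1 and 9.70 at Day 16. In Day 30 RPMI/B27 they were 125.0, 42.6 and 21.0. CKM made up 53.4% ± 1.92 (SD, n = 4) of the summed TPM at Day 16, 66.0% ± 2.59 in Day 30 RPMI/B27, 72.5% ± 3.05 in HPLM/B27 and 73.6% ± 2.06 in RPMI_glcM/B27. Its share was higher in each Day 30 group than at Day 16 and in both lowered-glucose media than in Day 30 RPMI/B27, without overlap (exact permutation test, adjusted p = 0.0457 for each). The difference of 6.45 percentage points between HPLM/B27 and Day 30 RPMI/B27 was 5.37 without replicate 2 of HPLM/B27 and 6.27, 5.32, 6.93 and 7.29 without replicates 1 to 4 of Day 30 RPMI/B27 (exact permutation test, unadjusted p = 0.0571 for each). In HPLM/B27 it was lower than in RPMI_glcM/B27 by 1.15 percentage points, with overlap (exact permutation test, adjusted p = 0.653). CKB made up 42.4% ± 1.89 (SD, n = 4) at Day 16 and 22.7% ± 3.27, 22.0% ± 2.51 and 20.7% ± 2.02 at Day 30 in the same order of media. CKMT2 made up 4.14% ± 0.0845 (SD, n = 4) at Day 16, 11.2% ± 1.43 in Day 30 RPMI/B27, 5.53% ± 0.724 in HPLM/B27 and 5.70% ± 0.224 in RPMI_glcM/B27.

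These shares depend on the gene lengths used. The length recovered from the TPM was 7371 bases for CKMT2, although its principal transcript in GENCODE has 1476 bases. If its reads came from that transcript, its TPM understate it beside CKM, whose length was 1556 bases in both. Which transcripts its reads came from was not tested. With principal transcript lengths, an alternative chosen after seeing the data, CKMT2 made up 17.3% ± 0.297 (SD, n = 4) at Day 16, 38.1% ± 3.36 in Day 30 RPMI/B27, 22.2% ± 2.37 in HPLM/B27 and 22.9% ± 0.735 in RPMI_glcM/B27. The share of CKM then differed between Day 30 RPMI/B27 and Day 16 by 0.527 percentage points (exact permutation test, unadjusted p = 0.657), while the other 4 differences in share named above kept an unadjusted p of 0.0286. The log2 ratios between groups do not depend on the lengths.

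**Figure D4:**
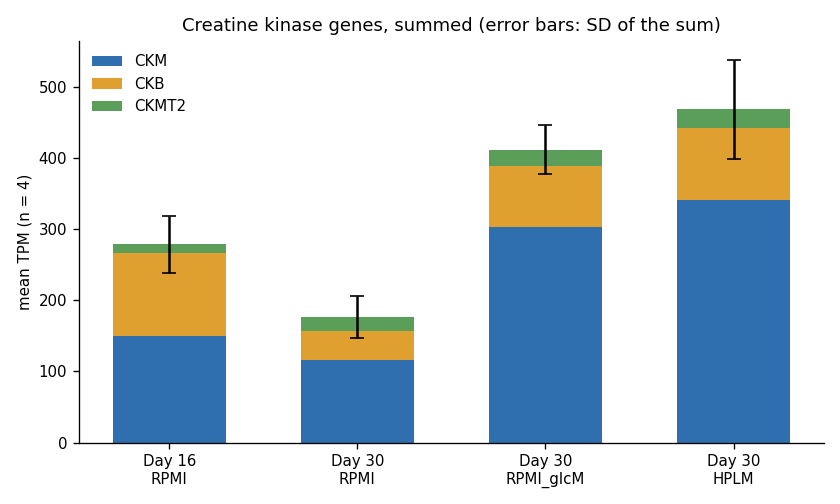
Mean TPM of CKM, CKB and CKMT2 (y axis, stacked from 0, n = 4) in each group (x axis), with error bars for the SD of the sum of the 5 creatine kinases. The bars stand for sums of 279, 176.5, 412 and 469 TPM, and CKMT1A and CKMT1B are too low to be seen.

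Promoters of the 3 expressed kinases and of SLC6A8 are shown because these genes differed in their course over time and media. The letters are the 250 bases before the gene start in RefSeq (GRCh38.p14), read along the gene's strand, with matches in capitals. The motifs sought on either strand were TATAAA (the core promoter box), CCAAT (the upstream promoter box), CAGCTG (the muscle form of the E-box), CACGTG (another form of the E-box) and AAGGTCA (a nuclear receptor element). They lie at chr19:45322876-45323125 (minus strand) for CKM, chr14:103522831-103523080 (minus) for CKB, chr5:81233072-81233321 (plus) for CKMT2 and chrX:153687676-153687925 (plus) for SLC6A8.
CKM: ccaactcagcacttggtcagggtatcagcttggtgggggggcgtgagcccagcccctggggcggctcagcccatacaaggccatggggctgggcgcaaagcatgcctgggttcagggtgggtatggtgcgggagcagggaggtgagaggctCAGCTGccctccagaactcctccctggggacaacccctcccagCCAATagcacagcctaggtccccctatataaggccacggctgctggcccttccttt
CKB: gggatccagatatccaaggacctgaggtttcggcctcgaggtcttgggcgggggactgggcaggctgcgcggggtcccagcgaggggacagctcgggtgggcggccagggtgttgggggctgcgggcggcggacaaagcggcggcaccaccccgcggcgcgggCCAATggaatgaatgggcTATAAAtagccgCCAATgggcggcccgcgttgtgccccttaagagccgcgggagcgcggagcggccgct
CKMT2: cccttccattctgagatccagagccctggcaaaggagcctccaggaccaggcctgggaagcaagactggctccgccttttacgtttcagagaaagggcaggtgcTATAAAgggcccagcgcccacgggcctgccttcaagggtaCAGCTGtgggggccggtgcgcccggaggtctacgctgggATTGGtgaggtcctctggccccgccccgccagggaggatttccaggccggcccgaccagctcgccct
SLC6A8: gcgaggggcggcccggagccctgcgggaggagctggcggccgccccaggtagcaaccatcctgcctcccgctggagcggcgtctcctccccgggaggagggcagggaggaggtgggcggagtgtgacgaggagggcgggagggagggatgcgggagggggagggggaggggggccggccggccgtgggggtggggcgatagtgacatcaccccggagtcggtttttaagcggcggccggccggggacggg
CAGCTG, a site for muscle helix-loop-helix factors, occurred in CKM starting 99 bases before the gene start and in CKMT2 at 106 bases, and in 14% of 35116 RefSeq promoters of this length. TATAAA occurred in CKB at 69 bases and in CKMT2 at 146 bases, and in 10.7% of all promoters. Only exact matches were marked, so the similar letters tatataa in CKM are not in capitals. CCAAT occurred in CKM at 56 bases, in CKB at 57 and 87 bases and, on the opposite strand, in CKMT2 at 67 bases, and in 32% of all promoters. CACGTG (6.34% of promoters) and AAGGTCA (3.44%) occurred in none of the 4, and SLC6A8 held none of the 5 motifs in this window. A match is a description of the letters and not a measured binding site.

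SLC6A8, on the plus strand of chromosome X from 153687926 to 153696588, brings creatine into the cell. It had 14.8, 16.7, 13.0 and 13.0 TPM at Day 16. It had 17.9, 15.9, 7.5 and 8.24 TPM in Day 30 RPMI/B27, where replicates 3 and 4, the libraries of highest RNR1, were far below the other pair. It had 19.9, 22.1, 18.1 and 15.6 TPM in RPMI_glcM/B27 and 20.3, 25.0, 22.7 and 20.8 TPM in HPLM/B27. HPLM/B27 was above Day 16 and Day 30 RPMI/B27 without overlap, and RPMI_glcM/B27 overlapped with every other group. SLC6A8 was 1.79-fold higher in HPLM/B27 than in Day 30 RPMI/B27 (log2 fold change 0.88, SE 0.22, adjusted p = 0.0421). This call was lost when any library but replicates 1 and 2 of Day 30 RPMI/B27 was left out, with values of 0.69 and 0.73 without replicates 3 and 4 of Day 30 RPMI/B27 and 0.92, 0.82, 0.87 and 0.91 without replicates 1 to 4 of HPLM/B27 (adjusted p from 0.0739 to 0.126). It was also lost with all genes above 0 in the fit (adjusted p = 0.0842) and with only the 2 groups (adjusted p = 0.215). Without both libraries of highest RNR1 the log2 fold change was 0.37 (SE 0.14, adjusted p = 0.0742).

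Rescaling gave SLC6A8 more calls. In rescaled TPM, Day 30 RPMI/B27 libraries lay between 9.63 and 15.6, RPMI_glcM/B27 between 17.9 and 21.5, HPLM/B27 between 23.0 and 25.0, and Day 16 between 11 and 12.6. On that scale SLC6A8 was above Day 16 in RPMI_glcM/B27 (0.63, SE 0.11, adjusted p = 0.000589) and in HPLM/B27 (0.93, SE 0.11, adjusted p = 2.08e-05). It was above Day 30 RPMI/B27 in RPMI_glcM/B27 (0.60, SE 0.11, adjusted p = 0.00284) and in HPLM/B27 (0.90, SE 0.11, adjusted p = 0.000120). On TPM the first 3 of these were 0.37 (adjusted p = 0.247), 0.60 (adjusted p = 0.0534) and 0.65 (adjusted p = 0.144), and the last of them passed without replicate 1 of Day 30 RPMI/B27 (0.85, adjusted p = 0.0356). Without both libraries of highest RNR1 the difference between RPMI_glcM/B27 and Day 30 RPMI/B27 was 0.15 on TPM (SE 0.14, adjusted p = 0.512). Over all alternatives the adjusted p of the 4 comparisons ran from 0.000281 to 0.422, from 2.06e-06 to 0.119, from 0.00120 to 0.512 and from 1.04e-05 to 0.215. From Day 16 to Day 30 in RPMI/B27 the log2 fold change was -0.28 on TPM (interval -0.74 to 0.18, adjusted p = 0.354) and 0.03 on rescaled TPM (interval -0.20 to 0.26, adjusted p = 0.895). SLC6A10P and SLC6A10PB, gene copies of the transporter, had 11 and 24 reads over the 16 libraries, and 2.06% of the stretches of 100 bases in SLC6A8 occurred in another gene.

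GATM, on the minus strand of chromosome 15 from 45361124 to 45402327, encodes the mitochondrial enzyme of the first step of creatine synthesis. Its level was 36.9, 36.0, 32.4 and 28.1 TPM at Day 16. It was 26.8, 28.6, 19.4 and 14.2 TPM in Day 30 RPMI/B27, 19.1, 18.9, 19.7 and 14.2 TPM in RPMI_glcM/B27, and 14.3, 15.4, 14.4 and 17.8 TPM in HPLM/B27. The RPMI_glcM/B27 and HPLM/B27 libraries were all below Day 16, and Day 30 RPMI/B27 overlapped with every group. GATM fell from Day 16 by 0.86 on the log2 scale in RPMI_glcM/B27 (SE 0.18, adjusted p = 0.00329) and by 1.06 in HPLM/B27 (SE 0.18, adjusted p = 0.000702), and both calls held under every alternative run. It fell by 0.60 in RPMI/B27 (SE 0.18, adjusted p = 0.0293), a call lost without replicate 1, 2 or 3 of Day 16 (-0.56, -0.57 and -0.62) or replicate 3 or 4 of Day 30 RPMI/B27 (-0.56 and -0.42), with an adjusted p from 0.0621 to 0.0927. It was also lost with only the 2 groups in the fit (adjusted p = 0.124) and with the RNR1 level as a covariate (-0.36, adjusted p = 0.259). On rescaled TPM that value was -0.28 (SE 0.10, adjusted p = 0.0596). HPLM/B27 against Day 30 RPMI/B27 gave -0.45 on TPM (interval -0.84 to -0.07, adjusted p = 0.236) and -0.44 on rescaled TPM (adjusted p = 0.00716), with a range over the alternatives from 0.00337 to 0.490. Without replicate 4 of Day 30 RPMI/B27 it was -0.64 and passed the test (adjusted p = 0.0321). RPMI_glcM/B27 against Day 30 RPMI/B27 gave -0.26 on TPM (adjusted p = 0.559) and -0.32 on rescaled TPM (adjusted p = 0.0434), with a range from 0.0207 to 0.775. Without the 2 libraries of highest RNR1, the log2 fold change was -0.25 over time in RPMI/B27 (adjusted p = 0.314), -0.80 in HPLM/B27 (adjusted p = 0.00390) and -0.61 in RPMI_glcM/B27 (adjusted p = 0.0207) against Day 30 RPMI/B27.

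GAMT, on the minus strand of chromosome 19 from 1397026 to 1401570, encodes the methyltransferase of the second step. Its level was 32.8, 33.2, 28.7 and 28.1 TPM at Day 16 and 25.6, 23.0, 19.9 and 12.8 TPM in Day 30 RPMI/B27. It was 30.4, 24.9, 21.9 and 17.4 TPM in RPMI_glcM/B27 and 19.9, 20.4, 20.2 and 18.9 TPM in HPLM/B27. RPMI/B27 and HPLM/B27 at Day 30 were below Day 16 without overlap, and the Day 30 groups overlapped with each other. On TPM, GAMT fell from Day 16 by 0.61 in RPMI/B27 (SE 0.18, adjusted p = 0.0293) and by 0.60 in HPLM/B27 (SE 0.18, adjusted p = 0.0252). Neither passed on rescaled TPM, where the values were -0.28 (SE 0.11, adjusted p = 0.0947) and -0.26 (SE 0.11, adjusted p = 0.0993). The first was also lost without replicate 1, 2 or 3 of Day 16 (-0.58, -0.57 and -0.64) or replicate 3 or 4 of Day 30 RPMI/B27 (-0.61 and -0.42), with only the 2 groups in the fit (adjusted p = 0.109), and without the 2 libraries of highest RNR1 (-0.32, adjusted p = 0.248). The second was lost without replicate 1 or 2 of Day 16 (-0.57 and -0.56) or replicate 1, 3 or 4 of HPLM/B27 (-0.60, -0.61 and -0.58). In RPMI_glcM/B27 the value against Day 16 was -0.38 (interval -0.77 to 0.0037, adjusted p = 0.152), which passed with a replicate block (adjusted p = 0.0443).

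Markers of hepatic endoderm were read beside GATM and GAMT. The summed level of 12 such markers, 10 of them tested and none at 0 throughout, was 475 to 843 TPM at Day 16, 329 to 579 TPM in Day 30 RPMI/B27, 94.96 to 217.5 TPM in RPMI_glcM/B27 and 71.9 to 212 TPM in HPLM/B27. The means of 11 of the 12, AFP the highest among them, were lower in all 3 Day 30 groups than at Day 16. AFP had means of 441 TPM at Day 16 and 138, 55.0 and 57.0 TPM at Day 30 in the same order of media. ALB, the albumin gene, ran the other way, with 21.2 TPM at Day 16 and 242, 78.1 and 49.9 TPM at Day 30, and was the highest of the 12 in Day 30 RPMI/B27 and RPMI_glcM/B27. The 10 fibroblast markers, 6 of them tested and none at 0 throughout, summed to 241 to 439, 151 to 301, 119 to 163 and 123 to 186.5 TPM in the same order of groups. The 9 endothelial markers, 1 of them tested, summed to 42.7 to 54.8, 13.7 to 31.6, 16.4 to 25.4 and 19.2 to 31.2 TPM, and the 5 pluripotent markers, 1 of them tested, to at most 4.67 TPM. Their part in the GATM and GAMT values was not tested.

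The RNA of the transporter and of the first synthesis enzyme was compared by the log2 ratio of SLC6A8 over GATM within a library. It was -1.32, -1.11, -1.31 and -1.11 at Day 16 and -0.58, -0.85, -1.37 and -0.79 in Day 30 RPMI/B27. It was 0.06, 0.23, -0.12 and 0.13 in RPMI_glcM/B27 and 0.50, 0.70, 0.65 and 0.23 in HPLM/B27. All libraries of RPMI_glcM/B27 and HPLM/B27 were above all libraries kept in RPMI/B27. The ratio was higher than at Day 16 by 1.29 in RPMI_glcM/B27 and 1.73 in HPLM/B27, and higher than in Day 30 RPMI/B27 by 0.97 and 1.42 (exact permutation test, adjusted p = 0.0457 for each). From Day 16 to Day 30 in RPMI/B27 it differed by 0.32 with overlap (exact permutation test, adjusted p = 0.191). HPLM/B27 was above RPMI_glcM/B27 by 0.45, with a small overlap (exact permutation test, p = 0.0571, adjusted p = 0.0857). Leaving out replicate 3 of Day 30 RPMI/B27 brought the former to 0.48, and leaving out replicate 4 of HPLM/B27 brought the latter to 0.54 (exact permutation test, unadjusted p = 0.0286 for each). The sign of the ratio depends on the gene lengths, whereas its differences between groups do not. The lengths used were 4025 bases for SLC6A8 and 3054 for GATM, against 3931 and 2348 in their principal transcripts. This ratio was not computed with principal transcript lengths. GAMT was not part of it, and only RNA was measured.

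**Figure D5:**
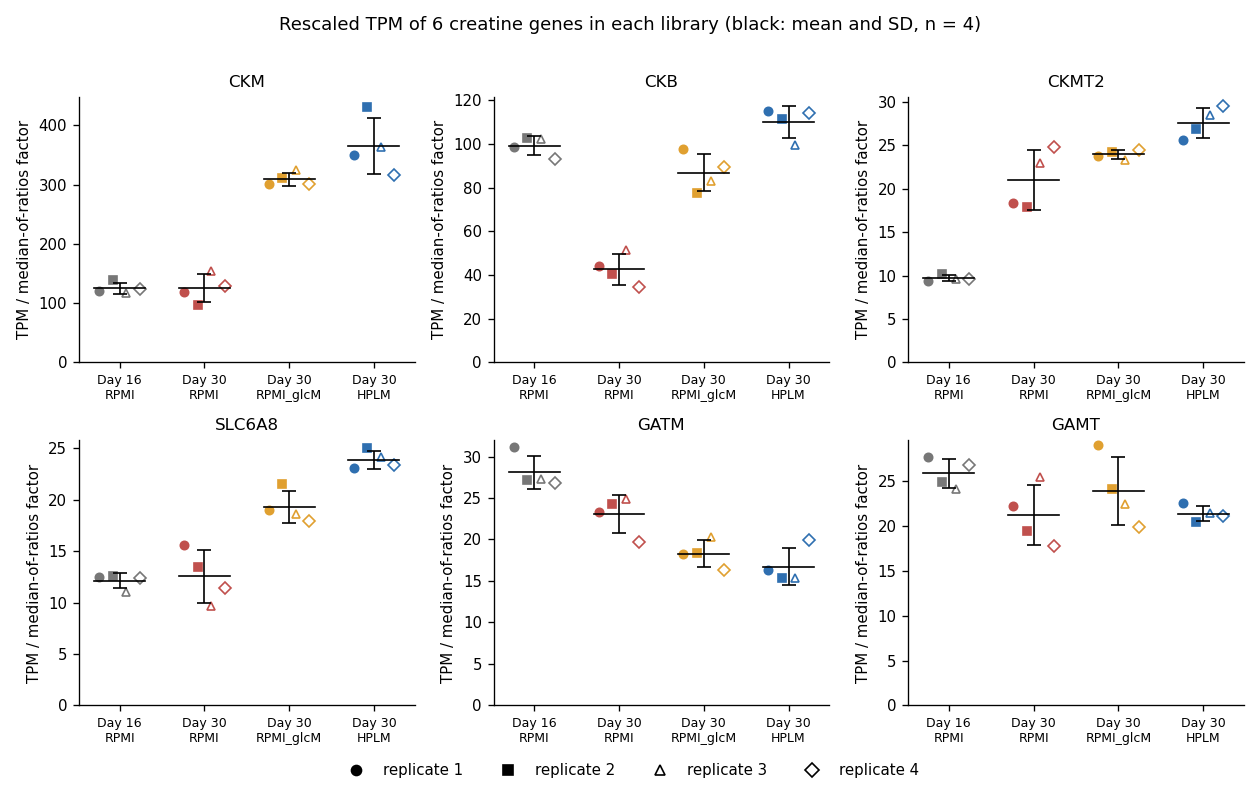
TPM divided by the median-of-ratios factor of the library (y axis, from 0) for the same 6 members and 16 libraries by group (x axis), with a symbol for each replicate number and the mean and SD in black (n = 4). On this scale SLC6A8 in HPLM/B27 (23.0 to 25.0) lies above every other library and CKB in Day 30 RPMI/B27 (34.6 to 51.4) below every other library.

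The difference between HPLM/B27 and RPMI_glcM/B27, media with matched glucose, was bounded for each member. The 95% intervals of the log2 fold change were -0.16 to 0.47 for CKM, -0.12 to 0.64 for CKB, -0.12 to 0.37 for CKMT2, -0.23 to 0.68 for SLC6A8, -0.58 to 0.19 for GATM and -0.60 to 0.17 for GAMT. With limma on TPM, the unadjusted p was under 0.05 for 0 of the 6 members and for 1053 of the 16122 genes tested. The smallest adjusted p of a member was 0.893. With limma on rescaled TPM it was under 0.05, unadjusted, for 3 members and for 2216 of 16038 genes. With limma-voom on recovered reads these numbers were 4 members and 2050 of 15423 genes. No member had an adjusted p under 0.05 in any alternative, the smallest being 0.0912. Rescaled, all HPLM/B27 libraries of CKB, CKMT2 and SLC6A8 were above all RPMI_glcM/B27 libraries, by 0.34 (interval 0.12 to 0.56), 0.20 (interval 0.01 to 0.39) and 0.30 (interval 0.07 to 0.53) on the log2 scale. Their adjusted p with limma on that scale was 0.126, 0.344 and 0.213. How many of all genes were without overlap in this comparison was not counted.

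SLC16A12, a transporter through which creatine can leave cells, had 25.2, 23.7, 24.4 and 22.2 TPM at Day 16. It had 33.7, 33.6, 21.9 and 18.8 TPM in Day 30 RPMI/B27, with a mean of 19.8 ± 2.82 TPM (SD, n = 4) in RPMI_glcM/B27 and 18.7 ± 0.981 TPM in HPLM/B27. None of its 6 comparisons passed the test on TPM. On rescaled TPM it was higher in Day 30 RPMI/B27 than at Day 16 (0.45, SE 0.09, adjusted p = 0.00186) and lower in RPMI_glcM/B27 (-0.46, SE 0.09, adjusted p = 0.00353) and HPLM/B27 (-0.46, SE 0.09, adjusted p = 0.00295) than in Day 30 RPMI/B27. Of its TPM in Day 30 RPMI/B27, replicates 3 and 4 were again the low pair.

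Genes around the creatine pathway were described by lists, whose medians stand beside those of all genes tested. Of 13 tested genes that supply arginine and glycine, 4 fell and none rose from Day 16 to Day 30 in RPMI/B27, where 17.8% of all genes fell and 2.08% rose, with a median log2 fold change of -0.44 against -0.28 over all genes. On rescaled TPM 4 fell and 3 rose, against 8.74% and 8.82% of all genes. PSAT1 and PHGDH, enzymes of serine synthesis from which glycine is made, fell from 7.01 ± 1.01 to 2.49 ± 0.747 TPM and from 8.05 ± 1.46 to 3.80 ± 0.753 TPM (SD, n = 4, log2 fold changes -1.22 and -0.91, adjusted p = 0.00384 and 0.00162). SLC25A15, the mitochondrial ornithine carrier, fell by 0.94 (adjusted p = 0.000716). SHMT2, the mitochondrial enzyme that makes glycine from serine, was higher in HPLM/B27 than in Day 30 RPMI/B27, at 14.4 ± 1.23 against 7.58 ± 1.36 TPM (SD, n = 4, log2 fold change 0.86, SE 0.17, adjusted p = 0.0138). It was the only one of the 13 called in that comparison on TPM, where 1.51% of all genes were higher. On rescaled TPM 2 of the 13 were higher there, against 7.49% of all genes. In RPMI_glcM/B27 against Day 30 RPMI/B27, 1 was higher on that scale, against 6.49%. Of 12 tested genes of the methyl donor cycle, which provides the methyl group for GAMT, 2 fell from Day 16 in HPLM/B27, 1 in RPMI_glcM/B27 and 1 in RPMI/B27, against 22.4%, 17.8% and 17.8% of all genes. None passed the threshold between the Day 30 media on TPM. On rescaled TPM 1 fell in each medium, against 11.8%, 13.6% and 8.74% of all genes. In the same order 2, 3 and 1 rose on that scale, against 13.4%, 14.1% and 8.82%, and against Day 30 RPMI/B27 1 was higher in RPMI_glcM/B27 (6.49% of all genes) and 1 lower in HPLM/B27 (5.56%). AHCY, which clears the by-product of methyl transfer, fell from 45.1 ± 5.97 TPM at Day 16 to 27.9 ± 6.92 TPM in RPMI/B27 (SD, n = 4, log2 fold change -0.69, adjusted p = 0.0116).

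The transfer of ATP out of mitochondria uses the adenine nucleotide carriers and porins, next to which CKMT2 sits. Of 7 tested genes of this list, 3 were higher in HPLM/B27 than in Day 30 RPMI/B27 and 2 in RPMI_glcM/B27, against 1.51% and 1.36% of all genes, with medians of 0.45 and 0.39 against -0.02 and 0.05 over all genes. On rescaled TPM 6 and 3 were higher, against 7.49% and 6.49%. From Day 16 to Day 30 in RPMI/B27, 3 of the 7 fell (17.8% of all genes), namely VDAC1 by 0.67, VDAC2 by 0.49 and SLC25A5 by 0.46 (adjusted p = 0.00499, 0.0426 and 0.0267), and on rescaled TPM 1 fell (8.74% of all genes). SLC25A4, the adenine nucleotide carrier of heart and muscle, had 101.7 ± 14.1 TPM at Day 16, 106 ± 27.8 TPM in Day 30 RPMI/B27, 166 ± 3.83 TPM in RPMI_glcM/B27 and 180.2 ± 10.6 TPM in HPLM/B27 (SD, n = 4). It was above Day 30 RPMI/B27 by 0.67 in RPMI_glcM/B27 (SE 0.15, adjusted p = 0.0226) and by 0.79 in HPLM/B27 (SE 0.15, adjusted p = 0.00783). The first of these was lost on rescaled TPM (0.61, adjusted p = 0.0787). VDAC1, a porin of the outer membrane, was above Day 30 RPMI/B27 by 0.67 in RPMI_glcM/B27 (adjusted p = 0.0214) and 0.76 in HPLM/B27 (adjusted p = 0.00929). SLC25A5, another adenine nucleotide carrier, was above it by 0.59 in HPLM/B27 (adjusted p = 0.0303).

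Of 7 tested genes for creatine kinase docking sites and ATP users of the heart cell, none passed the threshold between the Day 30 media on TPM. On rescaled TPM 1 was higher in HPLM/B27 than in RPMI/B27, where 7.49% of all genes were. From Day 16, 2 of the 7 rose and 3 fell in RPMI/B27, against 2.08% and 17.8% of all genes. In RPMI_glcM/B27 2 rose and 2 fell, against 3.34% and 17.8%, and in HPLM/B27 2 and 2, against 3% and 22.4%. On rescaled TPM 2, 3 and 3 rose in this order, against 8.82%, 14.1% and 13.4%, and 2 fell in each, against 8.74%, 13.6% and 11.8%. FHL2, a protein that tethers metabolic enzymes including creatine kinase to titin, rose from Day 16 in all 3 media, by 1.22 in RPMI/B27 (adjusted p = 0.00732), 1.15 in RPMI_glcM/B27 (adjusted p = 0.00803) and 1.36 in HPLM/B27 (adjusted p = 0.00255). Its TPM in RPMI/B27 overlapped with Day 16. MYH6, the alpha myosin heavy chain, fell by 1.57, 1.14 and 1.72 (adjusted p = 9.76e-05, 0.000618 and 2.00e-05). Of 12 tested adenylate kinases and related enzymes, none rose on TPM in any comparison, and from Day 16 3 fell in HPLM/B27, 3 in RPMI_glcM/B27 and 2 in RPMI/B27, against 22.4%, 17.8% and 17.8% of all genes. AMPD2, an AMP deaminase, and NME4 were among them in each medium, and AK7, an adenylate kinase, in the first and second. On rescaled TPM 5, 3 and 1 rose in the same order, against 13.4%, 14.1% and 8.82% of all genes, and 1, 3 and 1 fell, against 11.8%, 13.6% and 8.74%. Against Day 30 RPMI/B27, 1 was higher on that scale in HPLM/B27 (7.49% of all genes) and 1 in RPMI_glcM/B27 (6.49%). NME4, a mitochondrial nucleoside diphosphate kinase, fell from 187 ± 14.4 TPM at Day 16 to 123 ± 22.9, 109 ± 11.9 and 110.5 ± 8.33 TPM in the 3 Day 30 media (SD, n = 4, adjusted p = 0.00434, 0.000538 and 0.000688).

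Isoforms of other energy enzymes were read beside the kinases in a list of 7 forms typical of heart or skeletal muscle and a list of 8 other forms. LDHB, the heart subunit of lactate dehydrogenase, is in the first list, and LDHA, the subunit of skeletal muscle that is also found in many other tissues, is in the second. Of the 7 heart and muscle isoforms, 3 rose from Day 16 in HPLM/B27 (ENO3, LDHB and PGAM2, by 0.57, 0.40 and 0.44, adjusted p = 0.00828, 0.0115 and 0.0349). In RPMI_glcM/B27 0 passed the threshold, with a median of 0.13, and in RPMI/B27 1 fell (PYGM, by 0.97, adjusted p = 0.00264). Over all genes 3%, 3.34% and 2.08% rose and 22.4%, 17.8% and 17.8% fell in this order. On rescaled TPM 5, 3 and 0 rose, against 13.4%, 14.1% and 8.82% of all genes, and 1 fell in RPMI/B27, against 8.74%. Of the 8 other isoforms, 1 rose and 1 fell in HPLM/B27, 3 rose and 1 fell in RPMI_glcM/B27, and 3 fell in RPMI/B27. On rescaled TPM 3, 4 and 0 of them rose in the same order, and 2 fell in RPMI/B27. At Day 30, 3 of them were higher in RPMI_glcM/B27 and 3 in HPLM/B27 than in RPMI/B27, against 1.36% and 1.51% of all genes, LDHA in both, by 0.93 (adjusted p = 0.00114) and 0.76 (adjusted p = 0.00374). Of the heart and muscle isoforms, ENO3 and LDHB were higher in HPLM/B27 than in Day 30 RPMI/B27, by 0.69 (adjusted p = 0.0135) and 0.53 (adjusted p = 0.0120). None of the 7 passed the threshold on TPM between RPMI_glcM/B27 and RPMI/B27. On rescaled TPM 5 of the 7 were higher in HPLM/B27 and 2 in RPMI_glcM/B27 than in Day 30 RPMI/B27. Of the 8 others, 6 and 5 were, against 7.49% and 6.49% of all genes. On that scale 1 of the 7 was higher in HPLM/B27 than in RPMI_glcM/B27, where 1.6% of all genes differed.

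Genes whose log2(TPM + 1) followed a member most closely were sought over the 16 libraries among 14198 genes with means of at least 1 TPM and 10 reads. These correlations are descriptions, since the points share groups, depth and scaling. CKM was most like KIF1A (Pearson r = 0.975), CPNE4 (0.974) and ESRRA (0.964), and on rescaled TPM KIF1A (0.982) and ESRRA (0.970) were again the first and second, followed by SDHA (0.966). CKB was most like ATP5F1B (r = 0.964), SDK1 (0.952) and GALNT10 (0.946). CKMT2 was most like INPP4B (r = 0.979), FAM129A (0.976) and LOC107986558 (0.973), and SLC6A8 was most like PLK2 (r = 0.969), FBXO32 (0.961) and SDHD (0.958). GATM was most like TANC2 (r = 0.980), SLIT2 (0.975) and DPY19L3 (0.974). On rescaled TPM some of these were no longer among the 3 nearest genes. They were ATP5F1B for CKB, INPP4B and LOC107986558 for CKMT2, SDHD for SLC6A8 and SLIT2 for GATM. The other genes named for these members stayed among the 3 nearest. Among the members themselves, CKM and SLC6A8 had r = 0.827 on TPM and 0.888 on rescaled TPM, and GATM and GAMT had 0.810 and 0.467. CKM and GATM ran opposite, with r = -0.527 on TPM and -0.862 on rescaled TPM, and CKM and CKB had 0.559 on both.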

How the data were processed

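Total RNA of 16 wells of hPSC-CMs was sequenced with a stranded Takara kit. Per the submitters' processing notes, reads were aligned to hg38 with STAR 2.5.3a and counted with featureCounts 2.0.3, R 4.1.3 being named too. The authors deposited TPM for 43388 genes. The annotation, the gene lengths and the strand setting of the counting are not given in the sources used here. All columns were mapped to samples by their labels (0 columns were left unmapped). The design text of the series gives fewer libraries per medium than the 4 that the labels give, and all 16 were used.

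Whole reads and gene lengths were recovered from the steps between TPM values, within a tolerance of 0.005 reads, for all 31047 genes above 0. Recovered depth was 7744768 to 16183655 reads per library, and between 143 and 3026 reads lay on each tested member.

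The 16122 genes whose mean reached 1 TPM were tested on log2(TPM + 1) with limma 3.58.1 (R 4.3.3), a trended prior variance and all 4 groups in the fit, with Benjamini-Hochberg adjustment over all genes of a comparison and a threshold of 0.05. Fold changes on this scale understate those of low genes. Rescaled TPM were divided by median-of-ratios factors (16038 genes tested). Ratios were tested by exact permutation. Ratios and lists were computed with Python 3.11.15, pandas 2.3.3 and numpy 2.4.6, and the scripts were tested on simulated data.

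Genes were named by a rule: all members, the copies and partner transporter of SLC6A8, up to 3 genes of each other list with the largest change past the threshold per comparison described, and the 3 genes most like a member. One gene that this rule names is not reported here. CKMT2-AS1 was named because it overlaps CKMT2, after its values were seen. The members and lists were chosen with earlier results of these data known. Alternatives covered the pseudocount, the filter, the scaling, the samples in the fit, a replicate block, an RNR1 covariate, limma-voom on recovered reads, CKMT1A and CKMT1B summed, and leaving out each library. A block on rescaled TPM, leaving out the libraries of highest RNR1, and principal transcript lengths were added after seeing the data.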

Additional observations from a re-analysis of the deposited data

Results flagged for a closer look

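Over 40 groups of 4 libraries (6 members, 3 ratios and the CKM share, in 4 groups each), 4 held a library whose gap to its nearest neighbour passed Dixon's limit as a share of the group's range, and chance alone gives about 1 in 20. CKM in replicate 4 of Day 30 RPMI_glcM/B27 had 262.6 TPM, below the 315 to 321 TPM of the other libraries. CKB in replicate 1 of the same group had 102.3 TPM, above the 77.8 to 80.6 TPM of the others. CKMT2 in replicate 1 of Day 30 HPLM/B27 had 22.54 TPM, below 26.3 to 26.9 TPM in the others. GATM in replicate 4 of Day 30 RPMI_glcM/B27 had 14.22 TPM, below 18.9 to 19.7 TPM in the others. The gaps were 0.897, 0.889, 0.871 and 0.851 of the range. Members share libraries and their scaling, so the 40 groups are not independent of each other. On rescaled TPM the same 4 values were 301.0, 97.56, 25.58 and 16.3. The other libraries of each group then lay at 300.7 to 324.0, 77.48 to 89.22, 26.9 to 29.52 and 18.25 to 20.25.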

How the results depend on the processing

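The number of members past the threshold from Day 16 to Day 30 in RPMI/B27, 4 of 6 on TPM, was 2 on rescaled TPM, with only the 2 groups in the fit, with the RNR1 covariate, with rescaling and a replicate block, and without the 2 libraries of highest RNR1, and 2 to 5 when single libraries were left out. For RPMI_glcM/B27 against Day 16 (3 on TPM) it was 5 with a replicate block. For RPMI_glcM/B27 against Day 30 RPMI/B27 (2 on TPM) it was 4 on rescaled TPM and with limma-voom, and 1 with only the 2 groups. For HPLM/B27 against Day 30 RPMI/B27 (3 on TPM) it was 5 on rescaled TPM, without mitochondrial, ribosomal and 7SK RNA, with the RNR1 covariate, with limma-voom and with rescaling and a block. The cause of these changes was not tested.

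Some small differences changed sign. CKB in HPLM/B27 against Day 16 was 0.15 on rescaled TPM with or without a block, 0.14 with limma-voom and 0.014 without mitochondrial, ribosomal and 7SK RNA. SLC6A8 in RPMI/B27 over time was 0.028 on rescaled TPM with or without a block, 0.02 with limma-voom, 0.079 with the RNR1 covariate and 0.22 without the libraries of highest RNR1. Against Day 30 RPMI/B27, GAMT was -0.13 in HPLM/B27 with the covariate, and -0.28 in HPLM/B27 and -0.062 in RPMI_glcM/B27 without those libraries. With single libraries left out, GAMT in HPLM/B27 against Day 30 RPMI/B27 ranged from -0.19 to 0.13. The log2 ratio of CKMT2 over CKM ranged from -0.026 to 0.034 for RPMI_glcM/B27 against Day 16, from -0.131 to 0.061 for HPLM/B27 against Day 16 and from -0.128 to 0.064 for HPLM/B27 against RPMI_glcM/B27. The CKM share in HPLM/B27 against RPMI_glcM/B27 ranged from -2.24 to 0.083 percentage points.

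Libraries of the same replicate number correlated above 0.1 in 11 of 24 pairs (median r 0.0799, from -0.154 to 0.421). The median r of the other 72 pairs was -0.0344, and 8 of 16 libraries correlated best with their own number. These values do not settle whether the numbers pair the samples. The main test had no pairing, and the replicate block was run as an alternative. With the replicate block 5, 5, 5, 2, 4 and 0 members passed the threshold in the 6 comparisons, in the order of the report. Of all 16122 genes tested, 4734, 4487, 5520, 721, 732 and 48 did. The exact sign-flip test of the ratios with 4 pairs cannot go below 0.125, so no ratio can pass the threshold with it.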
